A study of Mus musculus with 25 samples.

Results

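The regions around annotated microRNA genes were followed in GFP-sorted cells of the developing retina of CD1 mice. They were chosen by annotation alone: each is a run of 50 consecutive windows of 200 bp (10 kb) around an annotated start, and its gene symbol begins with Mir and a digit or with Mirlet. Of 28488 regions in the table of counts from ATAC-seq, which cuts open chromatin with a transposase, 1231 met this rule, and they carry 1147 symbols. Overlapping runs were merged into 911 clusters, of which 815 hold a single run. Of the runs, 9 belong to host transcripts, the longer RNAs from which a hairpin is cut, and 11 to let-7 hairpins. A further run lay on unplaced sequence of chromosome X, was left out, and had 0 counts in all libraries.

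ATAC-seq was done on GFP+ cells, labelled as retinal progenitor cells, at 7 stages, with 1 library at E10 (labelled embryonic day 10/11) and 2 at each later stage from E12.5 over E14, E16.5 and E18 to birth (P0) and P2, 13 in all. RNA-seq was done on GFP+ cells and on GFP- cells, labelled as post-mitotic retinal cells, at E14, E18 and P2 (2 libraries each, 12 in all). All cells came from CD1 mice with no treatment named, and the labels do not name the reporter that drives GFP or say whether replicates came from separate litters. The p-values below therefore cover only how far these libraries scatter, which may be technical. No small RNA was measured: the values below are openness of chromatin and abundance of long transcripts.

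A microRNA is cut from a hairpin within a longer primary transcript, first in the nucleus by the Microprocessor (Drosha with Dgcr8) and then in the cytoplasm by Dicer1. The mature strand sits in an Argonaute protein and pairs with messenger RNAs through its seed, the bases near its 5′ end, so hairpins at different places in the genome that share a seed share most targets. In the retina, miR-9, miR-125 and let-7 are known for the timing of progenitor output, miR-124 for neurons, the miR-183, miR-96 and miR-182 cluster for photoreceptors, and miR-204 and miR-211 for pigment epithelium.

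Of 1139 hairpin symbols, 1011 matched RefSeq's GRCm38.p6 table of mature sequences. The sequences below belong to the clusters on which the results turn, and capitals mark the seed, bases 2 to 8. The first set, to miR-7662-3p, belongs to clusters that gained openness, although let-7c-5p also comes from Mirlet7c-1, whose cluster was called lower. The second set, from miR-125b-5p to miR-211-5p, belongs to clusters called lower at P0 than at E12.5. Those of miR-99a, miR-100 and miR-211 had no window called open by the measure below. The sequence of miR-29b-3p also comes from Mir29b-1, whose cluster was not called. The last pair, miR-125a-5p and miR-204-5p, belongs to clusters that were not called. They are shown to make visible which hairpins far apart in the genome give the same or nearly the same mature RNA.
miR-9-5p: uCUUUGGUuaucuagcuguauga
let-7b-5p: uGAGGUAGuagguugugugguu
let-7c-5p: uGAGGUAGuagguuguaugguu
let-7i-5p: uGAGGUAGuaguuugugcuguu
miR-7a-5p: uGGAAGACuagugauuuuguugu
miR-183-5p: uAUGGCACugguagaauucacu
miR-96-5p: uUUGGCACuagcacauuuuugcu
miR-182-5p: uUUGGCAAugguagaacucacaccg
miR-17-5p: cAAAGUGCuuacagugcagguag
miR-378b: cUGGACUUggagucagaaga
miR-7662-3p: uGGAGCCAggcggaucagccuugc
miR-125b-5p: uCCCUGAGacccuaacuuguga
miR-99a-5p: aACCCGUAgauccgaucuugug
miR-100-5p: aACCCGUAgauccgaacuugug
miR-181a-5p: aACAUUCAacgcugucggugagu
miR-29b-3p: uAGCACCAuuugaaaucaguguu
miR-29c-3p: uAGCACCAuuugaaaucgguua
miR-488-3p: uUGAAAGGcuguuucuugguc
miR-153-3p: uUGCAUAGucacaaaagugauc
miR-211-5p: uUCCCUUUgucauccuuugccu
miR-125a-5p: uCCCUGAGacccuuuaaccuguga
miR-204-5p: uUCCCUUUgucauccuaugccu
The sequence of miR-9-5p comes from 3 loci, Mir9-1, Mir9-2 and Mir9-3, and that of miR-125b-5p from 2, Mir125b-1 and Mir125b-2. Mir124a-1, Mir124a-2 and Mir124a-3 are named only.

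Counts in all regions summed to between 11179094 and 94686369 per library. How far a library stood above its own background was measured at all region centres, by dividing the mean count of the middle 400 bp by that of the 6 windows farthest out. This start enrichment was 6.40 in the E10 library, 18.5 and 19.9 at E12.5, between 23.6 and 28.5 from E14 to P0, and 22.7 and 12.2 at P2. The background itself, in counts relative to the library's region total (CPM) in the outermost windows, was 0.457 per window at E10, 0.239 and 0.252 at E12.5, 0.204 and 0.197 at P0, and 0.225 and 0.308 at P2. The E10 library and P2 replicate 2 therefore stand apart, and the E12.5 libraries had more background than the P0 libraries.

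Most hairpins sat inside or far from other genes rather than at open starts. Of 1222 hairpin regions, 649 had the hairpin in an intron of another gene on the same strand, 89 in an exon on the same strand, 74 and 22 in an intron or exon of a gene on the opposite strand, and 388 between genes. These places rest on the deposited exon positions alone, so a hairpin whose host transcript is not covered there counts as between genes. Another gene's start lay within 1 kb of 126 hairpins, while 857 had none within 6 kb. Around those 857, the centre stood 1.36 times above the outer windows at E10, 1.67 in both E12.5 libraries, and 2.08 and 2.21 at P0. Around the 126 near another start, it stood 5.37 times above at E10 and 17.2 and 18.4 at P0. The starts of other genes reached 6.65 at E10 and 29.5 and 30.3 at P0. The hairpins themselves were thus only slightly more open than the outermost windows on average. Nearer windows could be about as open. Around the 857 at E18, the window 3.1 kb towards lower coordinates stood at 1.82, against 1.80 and 2.02 in those beside the hairpin start. At P0 these values were 1.88, against 2.05 and 2.25.

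**Figure D1:**
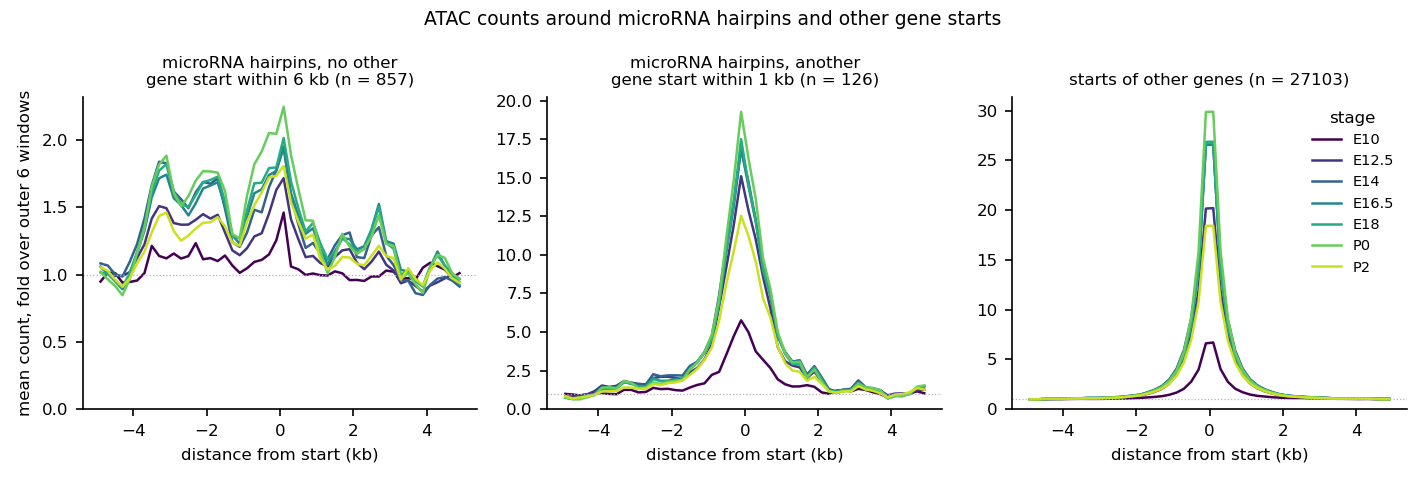
Mean ATAC count in each 200 bp window, as a fold over the outermost 6 windows (y axis, scales differ between panels), against distance from the hairpin or gene start in kb (x axis), 1 line per stage. The peak at the start is lowest for hairpins with no other gene start within 6 kb, higher for those with another start within 1 kb and highest for the starts of other genes, and E10 has the lowest peak in each of these 3 sets.

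The level of a cluster is given below as CPM, counts relative to the library's total scaled by edgeR's TMM factors, per kb of sequence covered by the cluster. A window was called open when its mean count over the 13 libraries was at least 5 times the mean of the outermost windows. By this measure 427 clusters had an open window, 314 of them more than 1 kb from the start of any other gene and 113 only within 1 kb of one, and 484 had none. Among the 314, the most open window lay more than 1 kb from another start in 243 clusters: within 1 kb of the hairpin or host transcript start in 73, farther upstream in 86, and farther downstream in 84. Most of a 10 kb region lies farther than 1 kb from its start. These counts alone therefore do not show whether the most open windows gather near the hairpin or away from it, which was not tested.

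From E12.5 to P0, the clusters that hold the 3 copies of miR-9, all 3 clusters named for miR-124, 3 of 8 let-7 clusters, and those of miR-7a and of miR-183, miR-96 and miR-182 gained openness. Those of Mir125b-2, Mir125b-1, the Mir99ahg start, Mir29b-2 with Mir29c, Mir181a-1 with Mir181b-1, and Mir488 lost it. Start enrichment rose over the same stages (values above), and counts from a fit with it as a covariate are given below. In all, 499 of 911 clusters (54.8%) passed an adjusted p of 0.05 in edgeR's quasi-likelihood test, below the 61.9% among all 27729 regions tested. Of the clusters, 166 (18.2%) were higher at P0, against 29.9% of all regions, and 333 (36.6%) lower, against 31.9%. The median log2 fold change was -0.41 over the clusters and 0.01 over all regions. The 2 P0 libraries lay entirely above both E12.5 libraries in 248 clusters and entirely below in 521, together 84.4%, where 88.0% of all regions did not overlap (44.2% above, 43.8% below). The count of calls was 304 without E12.5 replicate 2, where 10899 of 27717 regions were called. It was 322 without P0 replicate 1, where 11769 of 27729 were.

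The many lower calls fell on clusters with little openness. Among the 484 clusters without an open window, 9 were called higher and 262 lower, and their median level moved from 0.643 and 0.719 CPM per kb at E12.5 to 0.370 and 0.354 at P0. This fall was not particular to microRNA regions. The 10th percentile of the regions around other genes moved from 0.433 and 0.522 at E12.5 to 0.163 and 0.157 at P0. Among the 314 with an open window away from other starts, 103 were higher and 58 lower. In the third of clusters with the lowest mean level, 1 was higher and 173 lower, and in the third with the highest, 150 were higher and 25 lower. The mean level and the open windows were computed from libraries that include those compared, so these are descriptions. The background in the outermost windows fell over the same stages (values above). With each library's log2 start enrichment as a covariate, 318 clusters were called (137 higher, 181 lower), where 42.3% of all regions were called (19.3% higher, 23.0% lower). In those without an open window 21 were higher and 107 lower. With library totals in place of TMM factors the split was 112 higher to 388 lower, where 58.9% of all regions were called (20.5% higher, 38.4% lower). The median over all regions then moved to -0.21. When counts were taken only from open windows more than 1 kb from other starts, a setting chosen after the data were seen, 137 of 314 clusters were called (113 higher, 24 lower). Regions around other genes were still counted whole in that fit, so the 61.8% of all features called there (30.0% higher, 31.8% lower) is not the same measure. The part of background in the lower calls, and of start enrichment in the higher ones, was not tested beyond these fits.

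**Figure D2:**
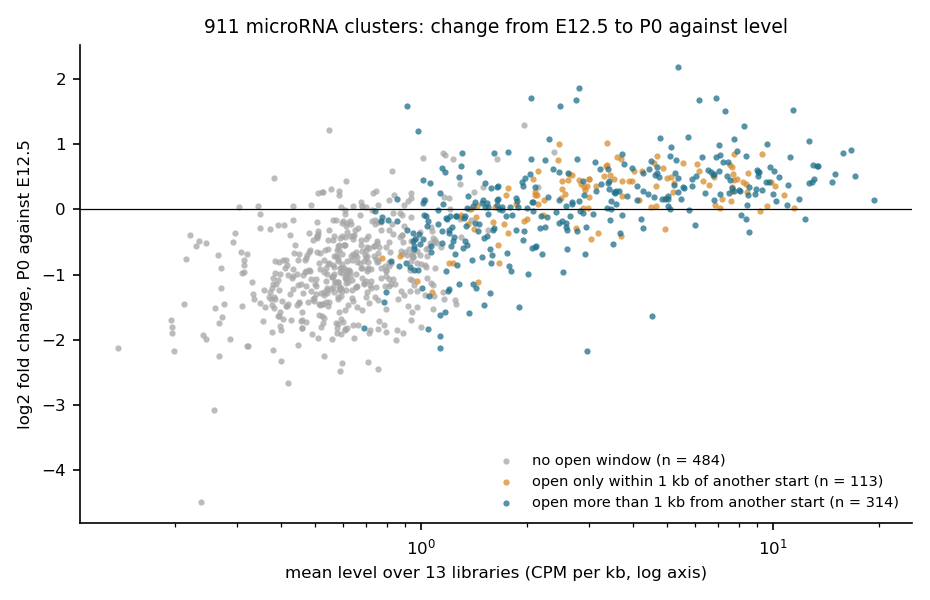
Each point is 1 of the 911 clusters, with its mean level over 13 libraries in CPM per kb (x axis, log scale) and its log2 fold change of P0 against E12.5 (y axis), coloured by whether it holds a window at least 5 times above background. Clusters without an open window lie mostly below 0 (262 called lower, 9 higher), and those with the highest levels mostly above it.

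The clusters of miR-9, a microRNA of neural progenitors and young neurons, rose at all 3 loci. Mir9-2 (chr13:83873419-83883418, mm9, between genes by the exon positions used) had levels of 1.6 at E10, 4.95 and 4.92 at E12.5, 7.92 and 7.3 at E14, 14.8 and 17.5 at E16.5, 18.1 and 17 at E18, 14.2 and 14.2 at P0, and 15.8 and 10.01 at P2. Both P0 libraries lay far above both E12.5 libraries (log2 1.52 ± 0.19 SE, adjusted p = 4.64e-10), the level was lowest at E10, and the 2 P2 libraries differed most from each other. All 32 of its open windows lay more than 1 kb from another gene's start. Mir9-3 with its host transcript start (chr7:86639912-86655149, in an intron and exons of AI854517 on the same strand) had 2.9 at E10, 3.03 and 2.66 at E12.5, 4.43 and 4.37 at E14, 5.91 and 5.9 at E16.5, 6.83 and 7.45 at E18, 9.03 and 9.17 at P0, and 9.63 and 9.05 at P2. Its levels rose with each stage after E12.5 without overlap between neighbouring stages up to P0 (log2 1.68 ± 0.17 SE, adjusted p = 5.11e-13). Mir9-1, merged with Mir3093 (chr3:88014093-88024519, between genes), was less open, at 2.31 at E10, 1.04 and 0.926 at E12.5, 1.03 and 1.02 at E14, 1.49 and 1.39 at E16.5, 1.65 and 1.81 at E18, 3.14 and 3.38 at P0, and 3.43 and 4.0 at P2. Its main step lay between E18 and P0, and its change from E12.5 to P0 was of the same size (log2 1.72 ± 0.14 SE, adjusted p = 1.7e-16). Another start annotated for Mir9-3hg formed a cluster of its own and rose from 1.29 and 1.21 at E12.5 to 3.84 and 3.72 at P0 (log2 1.59 ± 0.13 SE, adjusted p = 1.35e-16).

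All 3 clusters of miR-124, the most abundant microRNA of neurons, were already open in the GFP+ cells, which were measured in bulk. RNA of GFP+ cells also held neuronal transcripts: 8 neuronal genes summed to 200.2 and 207.9 FPKM at E18 and to 779.1 and 474.2 at P2. The part of post-mitotic cells in these levels was not tested. The one around Mir124a-1, its host transcript start and Mir3078 (chr14:65201952-65215021, in an exon of A930011O12Rik) had levels of 2.75 at E10, 3.33 and 2.75 at E12.5, 4.52 and 5.04 at E14, 6.92 and 6.8 at E16.5, 8.41 and 9.0 at E18, 9.43 and 10.5 at P0, and 10.9 and 8.94 at P2. It rose most of the 3 (log2 1.71 ± 0.17 SE, adjusted p = 3.08e-13), with no overlap between E12.5 and P0. Mir124a-2 with the start of Mir124-2hg (chr3:17684921-17700661) was open over 48 windows, at 5.47 at E10, 9.68 and 9.17 at E12.5, 13.5 and 13.2 at E14, 15.4 and 17.6 at E16.5, 15.7 and 15.2 at E18, 14.5 and 15.3 at P0, and 16.2 and 12.1 at P2. It was higher at P0 than at E12.5 (log2 0.66 ± 0.22 SE, adjusted p = 0.0085), but its highest stage mean came at E16.5 and the call was lost when any 1 of the 4 libraries compared was left out. Mir124a-3 (chr2:180623745-180633744, between genes) kept between 4.13 and 6.43 CPM per kb from E10 to E18 and had 10.2 and 9.35 at P0 and 9.56 and 9.94 at P2 (log2 0.99 ± 0.16 SE, adjusted p = 4.46e-07).

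The let-7 clusters did not move together. Let-7 is a family of many copies that rises in most tissues as they mature and whose processing Lin28 proteins block. Of 8 clusters, 3 were higher at P0, 2 lower and 3 not called, and 5 had no open window. Mirlet7c-2 with Mirlet7b (chr15:85532033-85542748, between genes, with the start of Lncppara in the region) had levels of 3.34 at E10, 1.33 and 1.35 at E12.5, 1.16 and 1.13 at E14, 1.77 and 1.5 at E16.5, 2.62 and 2.97 at E18, 4.33 and 4.26 at P0, and 4.91 and 5.1 at P2. Like Mir9-1, it was low from E12.5 to E16.5 and high at P0 and P2 (log2 1.68 ± 0.13 SE, adjusted p = 3.79e-18). Mirlet7i (chr10:122417780-122427779, between genes, its most open window within 1 kb of the hairpin) had 4.72 at E10, 6.69 and 6.17 at E12.5, 9.94 and 10.1 at E14, 10.9 and 11.2 at E16.5, 11.1 and 10.7 at E18, 12.6 and 13.1 at P0, and 10.4 and 7.42 at P2. It was higher at P0 (log2 0.999 ± 0.17 SE, adjusted p = 2.35e-06), with most of the difference already present at E14. The cluster of Mirlet7d, Mirlet7f-1 and Mirlet7a-1, without an open window, went from 0.618 and 0.669 at E12.5 to 1.2 and 1.01 at P0 (log2 0.79 ± 0.23 SE, adjusted p = 0.00257), a call lost without P0 replicate 1 and with library totals. Mir99a with Mirlet7c-1 and Mir100 with Mirlet7a-2 were lower (log2 -1.17 and -1.52), both at mean levels under 1 CPM per kb. The first call was lost without E12.5 replicate 2 or P0 replicate 1, the second without P0 replicate 2. Mirlet7g in Wdr82, Mirlet7f-2 with Mir98 in Huwe1, and Mirlet7e beside Mir99b and Mir125a were not called (adjusted p = 0.915, 0.0877 and 0.503).

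**Figure D3:**
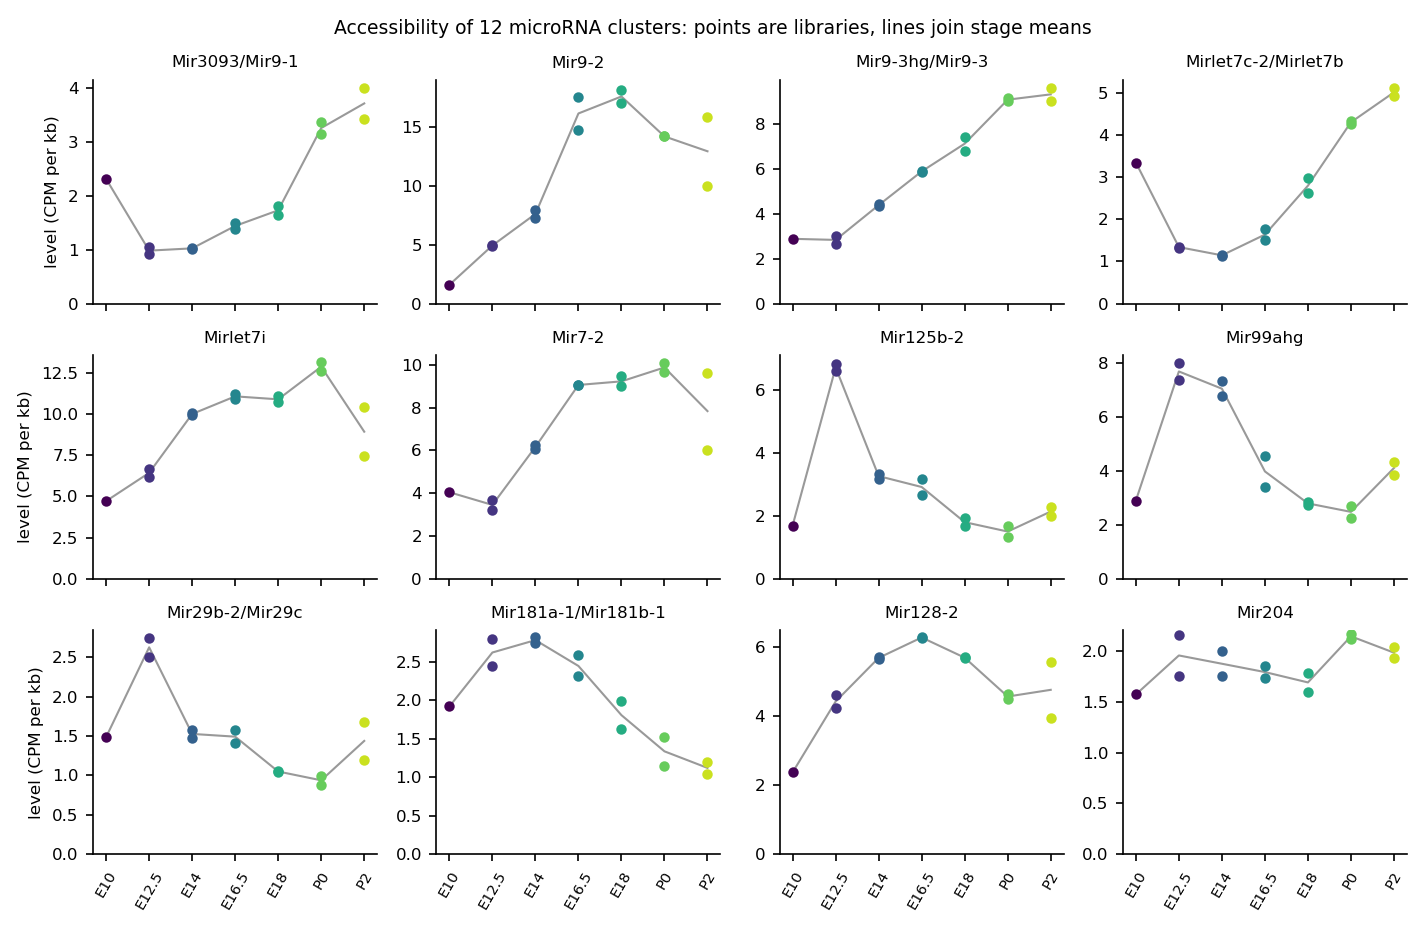
Levels of 12 clusters in CPM per kb (y axes start at 0) at the 7 stages (x axis). Points are libraries and lines join stage means. The 3 miR-9 clusters, Mirlet7c-2 with Mirlet7b, Mirlet7i and Mir7-2 are higher at P0 than at E12.5, Mir125b-2, Mir99ahg, Mir29b-2 with Mir29c and Mir181a-1 with Mir181b-1 are lower, and Mir128-2 and Mir204 were not called.

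The largest gain among called clusters with a mean count of at least 50 was around Mir378b, whose hairpin lies antisense in an intron of Msi2, the gene of an RNA-binding protein of stem and progenitor cells (chr11:88161275-88171274). Its levels were 2.83 at E10, 2.0 and 1.48 at E12.5, 1.8 and 2.12 at E14, 7.3 and 6.43 at E16.5, 7.92 and 8.2 at E18, 8.39 and 7.44 at P0, and 8.38 and 5.79 at P2. The 5 libraries up to E14 stayed at or below 2.83 and the 8 from E16.5 on at or above 5.79 (log2 2.19 ± 0.16 SE, adjusted p = 4.02e-19). The most open window lay 4.30 kb downstream of the hairpin. Mir7662, in an intron of Tspan15 (chr10:61651975-61661974), had 2.1 at E10, 1.34 and 1.43 at E12.5, 0.866 and 1.07 at E14, 1.35 and 1.38 at E16.5, 1.97 and 2.43 at E18, 5.03 and 5.07 at P0, and 6.22 and 6.23 at P2. The gain came after E18 (log2 1.87 ± 0.13 SE, adjusted p = 1.23e-19). Mir1892, in an exon of 1110002B05Rik, rose from 0.511 and 0.42 at E12.5 to 1.42 and 1.38 at P0 (log2 1.59 ± 0.30 SE, adjusted p = 1.15e-05).

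Both clusters that hold miR-7a, a microRNA of neuroendocrine cells that also targets Pax6, rose. Mir7-1, in an intron of Hnrnpk, went from 1.63 and 1.46 at E12.5 to 2.84 and 2.33 at P0 (log2 0.75 ± 0.14 SE, adjusted p = 1.02e-05). Mir7-2 (chr7:86028163-86038162, between genes), described after its values were seen, had 4.05 at E10, 3.68 and 3.23 at E12.5, 6.06 and 6.27 at E14, 9.07 and 9.04 at E16.5, 8.99 and 9.46 at E18, 10.1 and 9.64 at P0, and 9.63 and 6.04 at P2. It was low up to E12.5 and at least 8.99 in all 6 libraries from E16.5 to P0 (log2 1.51 ± 0.17 SE, adjusted p = 1.08e-11), and Mir7b was not called (log2 0.15 ± 0.17 SE, adjusted p = 0.437).

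The cluster of Mir182, Mir96 and Mir183 (chr6:30110992-30124736, with the start of Mirc35hg in the region) had levels of 2.64 at E10, 3.34 and 2.64 at E12.5, 3.1 and 2.89 at E14, 3.12 and 3.33 at E16.5, 3.2 and 3.23 at E18, 4.23 and 4.98 at P0, and 3.62 and 3.92 at P2. Both P0 libraries were the highest of the 13 (log2 0.62 ± 0.14 SE, adjusted p = 0.000125). Mir135b in Lemd1 rose from 2.61 and 2.96 at E12.5 to 5.54 and 6.36 at P0 (log2 1.09 ± 0.14 SE, adjusted p = 1.22e-09). Mir802, between genes, rose from 1.34 and 1.49 at E12.5 to 2.87 and 3.15 at P0 (log2 1.09 ± 0.14 SE, adjusted p = 1.56e-09) with 6.08 and 4.64 at P2. The Mir17 to Mir92-1 cluster, which promotes proliferation, was among the most open of all at 9.61 at E10, 12.7 and 11.9 at E12.5, 17.6 and 16.6 at E14, 16.6 and 17.6 at E16.5, 18.5 and 16.1 at E18, 16.8 and 19.1 at P0, and 13.02 and 8.71 at P2. It was higher at P0 (log2 0.55 ± 0.21 SE, adjusted p = 0.0187), but the call was lost with the covariate (adjusted p = 0.102) and when any 1 of the 4 libraries compared was left out. Its relatives Mir25 to Mir106b, in an intron of the replication gene Mcm7 with the start of Cops6 in the region, were also called higher (log2 0.37, adjusted p = 0.0128, 0.377 with the covariate), and Mir363 to Mir106a was not called (log2 -0.31 ± 0.18 SE, adjusted p = 0.128). Mir335 in Mest and Mir129b with Mir129-2 were called by narrow margins (log2 0.35 and 0.28, adjusted p = 0.0295 and 0.0469), and both calls were lost with library totals and without any 1 of the 4 libraries compared.

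Of the 3 clusters of miR-125, 2 lost openness, as did the start of Mir99ahg, the host transcript of Mir99a, Mirlet7c-1 and Mir125b-2. That start (chr16:77324573-77334572, in an exon of 2810055G20Rik) had levels of 2.9 at E10, 7.37 and 7.99 at E12.5, 7.33 and 6.76 at E14, 3.41 and 4.55 at E16.5, 2.85 and 2.74 at E18, 2.27 and 2.7 at P0, and 3.87 and 4.35 at P2. E12.5 and E14 stood above all other libraries (log2 -1.64 ± 0.14 SE, adjusted p = 1.29e-15 from E12.5 to P0), while E10, at 2.90, was close to E18. Mir125b-2 (chr16:77641518-77651517, between genes), a copy of the vertebrate lin-4, had 1.7 at E10, 6.61 and 6.84 at E12.5, 3.35 and 3.19 at E14, 2.66 and 3.19 at E16.5, 1.94 and 1.67 at E18, 1.32 and 1.69 at P0, and 2.01 and 2.28 at P2. Both E12.5 libraries were the highest of all by far (log2 -2.18 ± 0.14 SE, adjusted p = 4.77e-22). Mir125b-1 (chr9:41385009-41395008, in an intron of 2610203C20Rik, with the start of 3110039I08Rik in the region) fell less, from 3.37 and 3.29 at E12.5 to 2.21 and 2.43 at P0 (log2 -0.53 ± 0.13 SE, adjusted p = 0.000654, adjusted p = 0.0575 with the covariate), and was highest at E14. The third copy, Mir125a, with Mir99b and Mirlet7e (chr17:17962152-17972775, with the start of Spaca6), was open throughout, at 8.22 at E10, 13.1 and 13.3 at E12.5, 14.5 and 15.1 at E14, 13.5 and 14.6 at E16.5, 12.97 and 13.1 at E18, 10.7 and 13.2 at P0, and 9.79 and 8.09 at P2. It was not called (log2 -0.14 ± 0.19 SE, adjusted p = 0.503). The 3 clusters thus differed in level and in course.

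Mir29b-2 with Mir29c (chr1:196858234-196868740, in an exon of A330023F24Rik), a family known for silencing collagens and DNA methyltransferases, had levels of 1.49 at E10, 2.51 and 2.75 at E12.5, 1.58 and 1.48 at E14, 1.41 and 1.58 at E16.5, 1.05 and 1.05 at E18, 0.993 and 0.884 at P0, and 1.19 and 1.68 at P2. The 2 E12.5 libraries were the highest and the 2 P0 libraries the lowest (log2 -1.47 ± 0.18 SE, adjusted p = 5.94e-10). Mir181a-1 with Mir181b-1 (chr1:139858032-139868215, between genes) had 1.92 at E10, 2.79 and 2.45 at E12.5, 2.82 and 2.75 at E14, 2.31 and 2.58 at E16.5, 1.99 and 1.62 at E18, 1.15 and 1.53 at P0, and 1.04 and 1.2 at P2. The 6 libraries of E12.5 to E16.5 did not overlap the 4 of P0 and P2 (log2 -0.997 ± 0.16 SE, adjusted p = 2.83e-07). Mir488, in an intron of the neuronal adhesion gene Astn1, had 1.79 at E10, 2.02 and 2.13 at E12.5, 2.36 and 2.4 at E14, 1.21 and 1.35 at E16.5, 0.939 and 0.743 at E18, 0.778 and 0.567 at P0, and 0.59 and 0.978 at P2. All libraries up to E14 were at or above 1.79 and all later ones at or below 1.35 (log2 -1.60 ± 0.22 SE, adjusted p = 1.24e-08). Mir153, in an intron of Ptprn2, went from 2.31 and 2.5 at E12.5 to 1.74 and 1.45 at P0 (log2 -0.57 ± 0.15 SE, adjusted p = 0.000749). Mir184 went from 3.02 and 2.99 at E12.5 to 2.31 and 2.02 at P0 (log2 -0.47 ± 0.15 SE, adjusted p = 0.00623). For Mir184 the lowest levels were between 1.33 and 1.38 at E14 and E16.5, P0 replicate 2 decided the call, and its open windows alone gave the opposite sign.

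The lowest 8 fold changes by the same minimum belonged to Mir467g, Mir7094-1, Mir1899, Mir7039, Mir694, Mir378c, Mir6342 and Mir3969, between -3.08 and -2.26. None had an open window, and their mean levels were at or below 0.758 CPM per kb. Mir467g, for example, had 1.26 at E10, 0.298 and 0.232 at E12.5, 0.166 and 0.109 at E14, 0.0815 and 0.119 at E16.5, 0.169 and 0.178 at E18, 0.0144 and 0.0587 at P0, and 0.169 and 0.50 at P2. E10, E12.5 and P2 replicate 2, the libraries with the most background, were also its highest.

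Several microRNAs known from retina and brain showed no call between E12.5 and P0. Mir204, in an intron of Trpm3, had 1.57 at E10, 2.16 and 1.75 at E12.5, 1.75 and 2.0 at E14, 1.85 and 1.74 at E16.5, 1.6 and 1.78 at E18, 2.12 and 2.17 at P0, and 1.93 and 2.04 at P2, with overlap between E12.5 and P0 (log2 0.13 ± 0.15 SE, adjusted p = 0.463). Its relative Mir211, in an intron of Trpm1, was low, without an open window, and lower at P0 (log2 -1.75 ± 0.44 SE, adjusted p = 0.000701). Mir137 (log2 0.19 ± 0.14 SE, adjusted p = 0.222) and Mir128-2, in an intron of Arpp21 (log2 0.05 ± 0.14 SE, adjusted p = 0.781), were open with mean levels of 4.58 and 5.02, and Mir128-2 had its highest levels, 6.28 and 6.29, at E16.5. Mir7b, Mir129-1, Mir34a, Mir34c with Mir34b, Mir212 with Mir132, Mir219b with Mir219a-2, Mir181d with Mir181c and Mir135a-1 were not called either. A p above the threshold does not show that their levels were the same. Of the 39 listed clusters of retina or brain microRNAs outside let-7, 13 were higher, 11 lower and 15 not called, shares close to those over all regions (29.9% higher, 31.9% lower).

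Of 20 clusters of microRNAs typical of other tissues, 11 had no open window, a share close to that over all clusters (484 of 911). Of the 20, 1 was called higher, 9 lower and 10 not called, where 29.9% of all regions were higher and 31.9% lower, and 5 of the 9 lower calls remained with the covariate. Mir223 of myeloid cells had a mean level of 0.241, Mir144 to Mir451b of red cells 0.507, Mir122 of liver 0.516, Mir208a of heart 0.547 and Mir155 of lymphocytes 0.592 CPM per kb. Mir126a with Mir126b, in the endothelial gene Egfl7, was the most open of the 20 at 3.15 and was not called (log2 0.28 ± 0.13 SE, adjusted p = 0.0533). Mir10b in Hoxd3, with the start of Hoxd4, was the one called higher (log2 0.78 ± 0.18 SE, adjusted p = 0.000169), without an open window.

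Across the stages, 5 of the 6 highest mean levels belonged to regions that also hold another gene's start or a host transcript start. Mir1938 with the start of Ifrd1 averaged 19.4, Mir130a 17.1, Mir6976 with the start of Srf 16.6, Mir7238 with the start of Ankrd10 15.8, Mir17 to Mir92-1 14.99 and Mir7655 with the start of Mllt10 14.7 CPM per kb. Mir130a is the one of these 6 with neither, and its most open window lay 2.70 kb upstream. The 6 lowest, Mir6375, Mir6388, Mir448, Mir764 to Mir1264, a copy of Mir1906-1 and Mir767 with Mir105, averaged between 0.138 and 0.213, and the last 4 lie on chromosome X.

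The count of clusters with a steady course over the stages depended on the libraries used. In a fit of the stage rank from 1 to 7, 86 clusters (9.44%) were called, against 10.1% of all regions. Of these, 42 rose and 44 fell, where 5.20% and 4.89% of all regions did. Without P2 replicate 2 the count was 587 (119 rising, 468 falling), where 60.7% of all regions were called (25.8% rising, 34.9% falling). Without both E10 and that library it was 344 (136 rising, 208 falling), where 43.9% of all were called . Without any 1 of the E12.5 libraries, the P0 libraries or P2 replicate 1 it was between 46 and 53. Between 1366 and 1666 of all regions were called in those fits. The count therefore depends most on P2 replicate 2, whose start enrichment was low. The steepest rises were those of Mir378b (0.39 ± 0.07 SE per stage, adjusted p = 0.00148), Mir7662, Mir9-2, Mir802 and Mir124a-1 to Mir3078. The steepest falls were those of Mir101c, Mir5623, Mir6931, Mir3087 and Mir488 (-0.33 ± 0.06 SE per stage, adjusted p = 0.00108). For Mir101c and Mir3087 the E10 library decided the value: their levels were 9.07 and 5.67 at E10 and at most 0.781 and 0.925 in any other library, and without E10 the slopes were 0.08 and 0.05.

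Any difference among the 7 stages was called in 820 clusters, against 93.0% of all regions, and in 576 without the E10 library, where 77.3% of all regions were called. E10 had the highest mean level in 612 clusters and P0 the lowest in 354, and the same counts over all regions were not made. Clusters without an open window had a median of 1.55 CPM per kb at E10 and of 0.643 and 0.719 at E12.5. Background was also highest at E10 and lowest at P0 (values above), and its part in this order was not tested. Between E10 and E12.5, 56.8% of clusters (49.2% of all regions) were called, but E10 is a single library, so its spread is assumed to be that of the other stages. Between later neighbouring stages the shares were 38.1% from E12.5 to E14 (48.0%), 6.26% from E14 to E16.5 (4.83%), 1.10% from E16.5 to E18 (1.31%), 1.54% from E18 to P0 (0.938%) and 33.4% from P0 to P2 (39.2%). The steps with many calls are those at which start enrichment also moved (values above), and its part in them was not tested.

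Clusters were also grouped by the seed of their hairpins, with families chosen after the values were seen, so the counts are a description. Over all 911 clusters 18.2% were called higher and 36.6% lower, and over all regions 29.9% and 31.9%. No family was tested against these shares. The seed of miR-9-5p, CUUUGGU, occurs in 3 clusters, all called higher. The seed of let-7, GAGGUAG, was matched in 9 clusters, with 3 higher, 2 lower (Mir99a with Mirlet7c-1, and Mir1961) and 4 not called. Mirlet7a-2 was not matched to a mature sequence. Its cluster with Mir100, also called lower (log2 -1.52), is therefore not among the 9 and is counted only under miR-99 and miR-100. The seed of miR-125, CCCUGAG, occurs in 6 clusters, with 4 lower (Mir6367 and Mir6394 among them) and 2 not called. That of miR-99 and miR-100, ACCCGUA, occurs in 3, with 2 lower and 1 not called. For the seed of miR-181 (ACAUUCA) 2 of 3 clusters were lower, for that of miR-29 (AGCACCA) 1 of 2 and for that of miR-128 (CACAGUG) 1 of 2. For that of miR-204 and miR-211 (UCCCUUU) it was 1 of 3, with Mir7670 among the 3. The others were not called. For the seed of miR-17, miR-20, miR-93 and miR-106 (AAAGUGC) 3 of 4 clusters were higher. Among these, the cluster of Mir6383 (log2 1.21) holds none of the microRNAs named. For the seed of miR-7 (GGAAGAC) 2 of 3 were higher. For that of miR-25, miR-92 and miR-363 (AUUGCAC), which Mir32 and Mir367 share, it was 2 of 6. The others were not called. The calls of Mir17 to Mir92-1 and of Mir25 to Mir106b were lost with the covariate (values above). Many lower calls came from clusters without an open window. Families can share a cluster, as miR-17 and miR-92 do, and are then not separate observations.

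**Figure D4:**
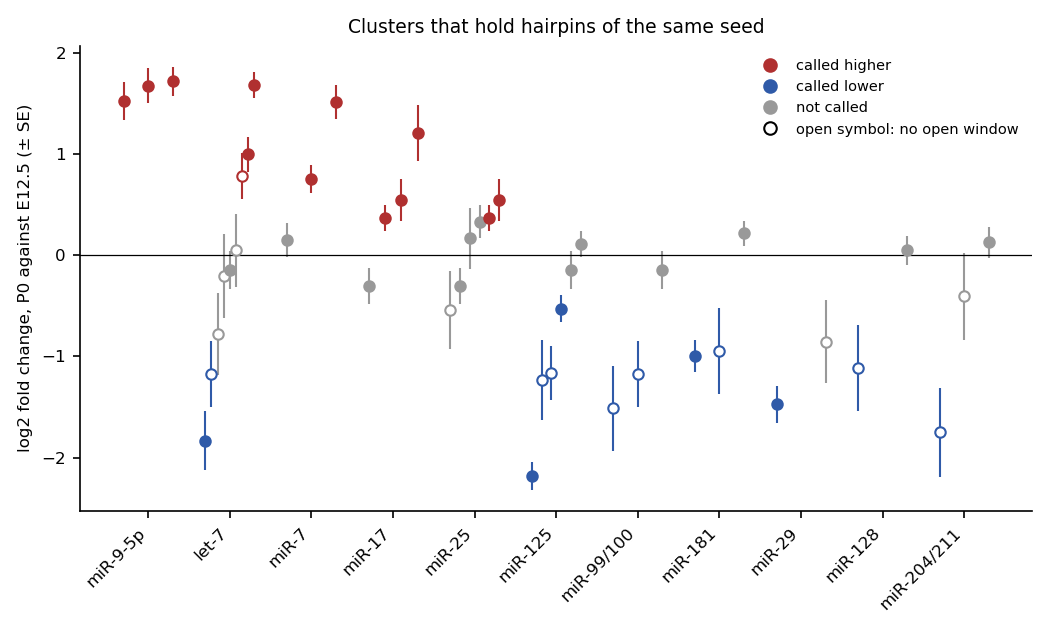
Log2 fold change of P0 against E12.5 with its SE (y axis) for each cluster that holds a hairpin of the named seed family (x axis). Colours mark calls at an adjusted p of 0.05 and open symbols mark clusters without an open window. All 3 miR-9-5p clusters are above 0, the matched let-7 clusters lie on both sides, and none of the 6 clusters with the miR-125 seed was called higher. Mir100 with Mirlet7a-2 is shown only under miR-99/100.

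Of the 35 regions around the starts of 28 genes that make and use microRNAs, from Drosha and Dicer1 to the Argonautes, 22 were called higher at P0 than at E12.5 and 2 lower, with a median log2 fold change of 0.43 (all regions: 29.9% higher, 31.9% lower, median 0.01). Start enrichment rose over the same stages, and with it as a covariate 19.3% of all regions were higher. Its part in the 22 calls was not tested.

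In the RNA, few host transcripts or machinery genes passed the test of GFP+ against GFP- cells when the E14 libraries were in the fit. At E18, limma on log2(FPKM + 1) called 1 of 38 host transcripts and 1 of 28 machinery genes, both lower in GFP+ cells. Of 14276 genes, 3.61% were called (1.13% higher, 2.49% lower). At an unadjusted p under 0.05 there were 13 host transcripts and 4 machinery genes. At P2 it called 0 of both, where 1.49% of all genes were called (0.112% higher, 1.37% lower), with 5 host transcripts and 2 machinery genes at an unadjusted p under 0.05. The 2 E14 replicates differ strongly from each other and stand apart in the fit. Lens crystallins (Cryaa and Crygs) summed to 2689 FPKM in E14 GFP- replicate 2, 61.4 in E14 GFP+ replicate 2 and at most 1.66 in the other 10 libraries. Lin28a was 10.8 and 10.4 in those 2 libraries and at most 0.481 in the others. Without the E14 libraries, a choice made after the data were seen, 28 of 37 host transcripts (15 higher, 13 lower) and 11 of 27 machinery genes (3 higher, 8 lower) were called at E18, where 51.1% of all genes were (25.5% higher, 25.6% lower). At P2 the counts were 21 (11 higher, 10 lower) and 4 (1 higher, 3 lower), where 34.0% of all genes were (16.2% higher, 17.7% lower).

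The first 5 host transcripts described had more RNA in GFP- cells at E18. Mir124-2hg, host of miR-124, had 68.4 and 43.6 (GFP+) against 106 and 28.5 FPKM (GFP-) at E14, 97.1 and 107 (GFP+) against 240.1 and 296 FPKM (GFP-) at E18, and 36.2 and 44.4 (GFP+) against 128 and 91.9 FPKM (GFP-) at P2. GFP- cells had more at E18 and P2 with no overlap, and at E14 the sorts overlapped. The difference at P2 did not pass (log2 -1.41 ± 0.52 SE, adjusted p = 0.249, 0.000728 without E14). Mir22hg had 0.396 and 0.152 (GFP+) against 2.55 and 2.83 FPKM (GFP-) at E18 and was the host transcript called (log2 -1.54 ± 0.31 SE, adjusted p = 0.04), a call lost when any 1 of the 4 E18 libraries was left out. Ptprn2, host of Mir153 and a gene of secretory vesicles, had 2.98 and 3.03 (GFP+) against 15.7 and 19.3 FPKM (GFP-) at E18 (log2 -2.20 ± 0.57 SE, adjusted p = 0.0713, 0.000159 without E14) and 0.519 and 1.49 (GFP+) against 10.1 and 8.01 FPKM (GFP-) at P2 (log2 -2.36 ± 0.57 SE, adjusted p = 0.0979, 0.000233 without E14). Slit2, an axon guidance ligand that hosts Mir218-1, had 10.2 and 8.77 (GFP+) against 58.2 and 63.3 FPKM (GFP-) at E18 and 2.57 and 2.75 (GFP+) against 18.4 and 13.6 FPKM (GFP-) at P2 (adjusted p = 0.075 and 0.186, 1.22e-05 and 4.13e-05 without E14). Dnm3, a neuronal dynamin with Mir199a-2 and Mir214 on its opposite strand, had 1.73 and 1.54 (GFP+) against 14.5 and 14.8 FPKM (GFP-) at E18 and 3.19 and 2.27 (GFP+) against 17.9 and 23.04 FPKM (GFP-) at P2 (adjusted p = 0.117 and 0.236). For these 5 the GFP+ and GFP- libraries did not overlap at the E18 and P2 values given so far. Mir22hg at P2 did overlap, with 0.745 and 1.15 (GFP+) against 1.57 and 1.10 FPKM (GFP-).

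On the GFP+ side, Dleu2, host of Mir15a and Mir16-1, had 41.98 and 32.9 (GFP+) against 18.97 and 15.5 FPKM (GFP-) at E18 (log2 1.07 ± 0.28 SE, adjusted p = 0.0717, 0.00117 without E14). Ska2, a spindle gene that hosts Mir301, had 56.5 and 54.8 (GFP+) against 33.5 and 31.2 FPKM (GFP-) at E18 and 35.7 and 41.1 (GFP+) against 25.6 and 25.1 FPKM (GFP-) at P2 (adjusted p = 0.0899 and 0.28). Copz1 had 44.04 and 47.7 (GFP+) against 34.8 and 36.1 FPKM (GFP-) at E18. At P2, Pde2a had 10.7 and 8.94 (GFP+) against 4.43 and 5.51 FPKM (GFP-), Ctdspl 9.58 and 11.8 (GFP+) against 6.23 and 5.05 FPKM (GFP-) and Hnrnpk 724 and 699.6 (GFP+) against 580.2 and 550.5 FPKM (GFP-). GFP+ and GFP- libraries did not overlap for these 6 at the values given, and none passed with the E14 libraries in the fit. Dleu2 overlapped at P2, with 4.14 and 5.10 (GFP+) against 4.47 and 4.08 FPKM (GFP-). Pde2a overlapped at E18, with 5.32 and 5.748 (GFP+) against 3.50 and 5.744 FPKM (GFP-). Rtl1, opposite in strand to several hairpins of the Dlk1 and Meg3 domain, was below 2 FPKM in all E18 libraries (0.762 and 0.879 (GFP+) against 1.48 and 1.94 FPKM (GFP-)). Mir99ahg and Mir17hg, whose regions were followed above, had 3.39 and 3.19 (GFP+) against 1.94 and 0.862 FPKM (GFP-) and 12.8 and 13.1 (GFP+) against 8.86 and 10.3 FPKM (GFP-) at E18, and 6.47 and 4.04 (GFP+) against 2.2 and 3.88 FPKM (GFP-) and 3.62 and 12.2 (GFP+) against 10.3 and 3.91 FPKM (GFP-) at P2. Counting strand is not given in the sources used here, so reads of overlapping genes on opposite strands may not be told apart.

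**Figure D5:**
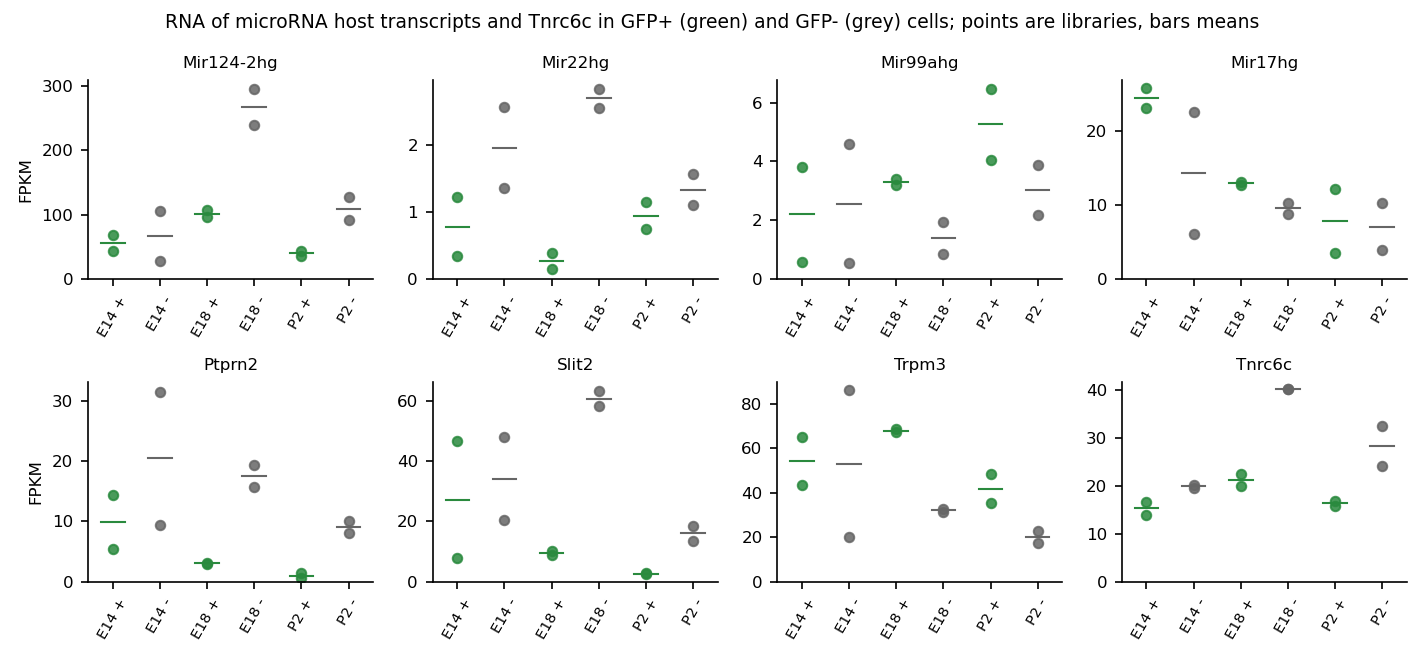
RNA in FPKM (y axes start at 0) of 7 host transcripts and of Tnrc6c at E14, E18 and P2 in GFP+ and GFP- cells (x axis). Points are libraries and short lines are means of 2. At E18 and P2, Mir124-2hg, Ptprn2, Slit2 and Tnrc6c are higher in GFP- cells and Trpm3 in GFP+ cells. At E14 the replicates of at least 1 sort spread widely in most panels, though not for Tnrc6c.

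Among machinery genes, Tnrc6c, a partner of Argonaute that recruits deadenylases, was the one called at E18, with 20.02 and 22.5 (GFP+) against 40.4 and 40.2 FPKM (GFP-) (log2 -0.89 ± 0.17 SE, adjusted p = 0.0371), a call lost when any 1 of the 4 E18 libraries was left out. At P2 it had 15.8 and 16.9 (GFP+) against 24.1 and 32.6 FPKM (GFP-) (log2 -0.74 ± 0.17 SE, adjusted p = 0.0879). Ago4 had 3.2 and 3.42 (GFP+) against 10.8 and 12.7 FPKM (GFP-) at E18 and 6.75 and 4.78 (GFP+) against 11.5 and 17.2 FPKM (GFP-) at P2 (adjusted p = 0.11 and 0.328, 0.000557 and 0.00427 without E14). Ago1 had 22.97 and 22.5 (GFP+) against 33.5 and 33.2 FPKM (GFP-) at E18, and the editing enzyme Adar 12.2 and 12.4 (GFP+) against 17.1 and 22.7 FPKM (GFP-) (adjusted p = 0.102 and 0.144). Tnrc6a, the uridylyl transferase gene Zcchc6, the nuclear RNA gene Srrt and the exonuclease gene Xrn2 at E18, and Ddx17, Pabpc1, Tarbp2, Tnrc6a, Srrt and Xrn2 at P2, completed the 8 smallest p-values of each age and did not pass. Drosha, Dgcr8 and Dicer1 were at 22.6 and 23.6, 24.4 and 27.9, and 15.6 and 15.9 FPKM in GFP+ cells at E18, and none of the 3 was called. A test of whether the difference between sorts changed from E18 to P2 called 0 of 38 host transcripts and 0 of 28 machinery genes in limma (2 and 0 at an unadjusted p under 0.05), where 14 of all 14276 genes (0.0981%) were called.

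Summed levels of several marker lists differed between the sorts, with exceptions among their members. The summed level of 9 progenitor genes was between 1607 and 2962 FPKM in GFP+ libraries and between 616.5 and 1451 in GFP- libraries. Pax6 went the other way, at 203 and 218 (GFP+) against 433.0 and 437 FPKM (GFP-) at E18 (log2 -1.04 ± 0.22 SE, adjusted p = 0.0439 in limma). Six3 at E18 was also not higher in GFP+ cells (13.6 and 15.1 against 15.3 and 17.2). The summed level of 8 neuronal genes was between 668 and 1778 in GFP- libraries of E18 and P2 and between 200.2 and 779 in GFP+ ones. At E14 it was 208 and 87.3 in GFP+ libraries and 1856 and 103.9 in GFP- libraries, so replicate 2 of the GFP- cells lay below replicate 1 of the GFP+ cells. Microglial markers (3 genes) summed to at most 3.03 in any library. Of the 3 endothelial markers Kdr was between 147 and 233 FPKM in GFP+ and between 48.2 and 98.8 in GFP- libraries of E18 and P2, while Cdh5 and Pecam1 were at most 0.327 there. Red cell markers (3 genes) summed to between 17.1 and 85.9 FPKM in GFP- and to at most 3.78 in GFP+ libraries of those ages. At E14 they summed to 1415 and 53.2 FPKM in GFP- and to 4.89 and 7.045 in GFP+ libraries. Pigment epithelium markers (3 genes) summed to 48.4 FPKM in E14 GFP- replicate 2 and to at most 2.21 in any other library. Trpm1, in whose intron Mir211 lies, had 194 FPKM in that replicate, 22.8 in E14 GFP+ replicate 2 and at most 0.869 elsewhere. In such bulk samples fewer cells of a type and less RNA per cell cannot be told apart, and the part of these cell types in the differences of host and machinery transcripts was not tested.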

How the data were processed

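ATAC-seq counts were deposited by the authors as raw counts per 200 bp window, and RNA values as FPKM, a unit read from the deposited values since the program behind them is not given in the sources used here. Per the submitters' processing notes, Bowtie2, HISAT2, Picard 2.10.7, SAMtools 1.5, featureCounts 1.5.3 and bedtools 2.26.0 were used, on the builds mm9 and mm10, with no roles given. The window coordinates are those of mm9. Whether reads were shifted for the transposase, and which duplicates were removed, is not given there.

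Window counts were summed over each of 911 merged microRNA clusters and each region around another gene. The 27729 features left by edgeR's filter were fitted together with edgeR 4.0.16 (TMM, quasi-likelihood test, all 13 libraries in 7 stages) in R 4.3.3, with Benjamini-Hochberg adjustment over all of them, and DESeq2 1.42.0 was an alternative. RNA was tested with limma 3.58.1 on log2(FPKM + 1), over 14276 of 28446 genes with at least 1 FPKM in 2 or more libraries and with all 12 libraries in the fit, a scale that understates changes of low genes. Both fits were tested on simulated data. The simulated ATAC-seq libraries differed in depth and in a set of changed regions, but not in background or start enrichment. That test therefore does not bear on the part of either in the calls. Region totals from 11179094 to 94686369 counts limit precision most at P0 replicate 2, the shallowest library. Read counts without molecular identifiers are not independent molecules.

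The clusters named are a list of retina, brain and other-tissue microRNAs, the 8 highest and 8 lowest fold changes among called clusters without overlap and with a mean count of at least 50, the 5 steepest trends each way, and the 6 highest and lowest levels, and up to 8 host and 8 machinery transcripts with the smallest p per age. The members and lists were chosen with earlier results of these data known. Counts over exons were not analysed here, apart from using that table's exon positions to place hairpins. Tables and figures were made with Python 3.11.15, pandas 2.3.3, numpy 2.4.6 and matplotlib 3.10.9.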

Additional observations from a re-analysis of the deposited data

How the results depend on the processing

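Leaving out each library in turn gave between 304 and 656 called clusters for P0 against E12.5 (112 to 209 higher, 192 to 447 lower), 46 to 587 for the trend (22 to 119 rising, 22 to 468 falling), and 576 to 892 for any difference. Counts over all regions moved too. For P0 they ran from 10899 of 27717 without E12.5 replicate 2 to 21560 of 27714 without P2 replicate 2. For the trend they ran from 1366 of 27717 to 16834 of 27714 without the same libraries. For any difference they ran from 21332 of 27580 without E10 to 27214 of 27718 without P2 replicate 1. The lowest P0 counts came without E12.5 replicate 2 (304) and P0 replicate 1 (322), and the highest trend count without P2 replicate 2. With start enrichment as a covariate, 318 clusters were called for P0 (181 lower) and 162 for the trend (83 rising, 79 falling). Over all 27729 regions that fit called 11729 for P0 and 5803 for the trend. Without windows near other starts, 91 were higher at P0, where 8248 of 27729 regions were, with those around other genes counted whole. With library totals, 28 fell in the trend, where 1192 of 27729 regions did. With only E12.5 to P0 the trend count was 424 (156 rising, 268 falling), where 15207 of 27547 regions were called (7161 rising, 8046 falling). Some alternatives were chosen after seeing the data. Open windows only gave 137 for P0 (24 lower), 10 falling in the trend and 194 for any difference, with 314 clusters tested. Of the 27132 features in that fit, other regions counted whole, 16771 were called for P0, 1396 fell and 25110 had any difference. Without E10 and P2 replicate 2 the trend gave 344 (136 rising, 208 falling), where 12141 of 27644 regions were called (5526 rising, 6615 falling). The cause of the other shifts was not tested.

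Signs that reversed were Mir184 with open windows only (0.86), Mir219c with Mir219a-1 without windows near other starts (-0.55), and the trends of Mir101c and Mir3087. The Mir101c slope was 0.080 with the covariate, 0.073 without E10 and P2 replicate 2, and from -0.59 to 0.079 when 1 library was left out, with the highest value without E10. The Mir3087 slope ran from -0.44 to 0.050 in the same way. Of 1703 alternatives for 79 named clusters at P0, 1574 kept their side of the threshold without reversing a called value, 83 lost the call and 44 gained one. Among the 1574, 38 in 21 clusters changed the sign of a value that was not called.

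In the RNA at E18, 1 host and 1 machinery call became 0 and 0 with a pseudocount of 0.1 and without any 1 of the 4 libraries (0 to 0). With that pseudocount, 29 of 14276 genes were higher and 114 lower. With 1 library left out, 3 to 9 of all genes were higher and 5 to 24 lower. The host count was 3 with no filter, 30 of 37 with only E18 libraries and 28 without E14. The machinery count was 13 of 27 with only E18 libraries and 11 without E14. Over all genes, 268 of 22882 were higher and 702 lower with no filter. With only E18 libraries 3968 of 13403 were higher and 3982 lower, and without E14 51.1% were called. At P2 the host count was 18 with only P2 libraries and 21 without E14, and the machinery count 3 and 4, with 0 to 0 when 1 library was left out. Over all genes, 1462 of 12844 were higher and 1767 lower with only P2 libraries, and 34.0% were called without E14.

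The labels do not say that a replicate number marks a shared batch, and same-numbered libraries did not deviate together throughout: correlations ran from -0.38 to 0.43 in ATAC-seq and from -0.56 to 0.36 in RNA. The highest in RNA was between GFP+ and GFP- at E14, where both replicate 2 libraries hold lens crystallins and Lin28a. With the replicate block, 504 clusters were called for P0 and 63 for the trend, 1 host and 1 machinery transcript at E18, and 0 and 0 at P2. Over all 27729 regions the block called 17290 for P0 and 2191 for the trend. Of 14276 genes it called 97 higher and 172 lower at E18, and 8 higher and 121 lower at P2. The crossed block at P2, chosen after seeing the data, called 0 and 0.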
